A study of Mus musculus with 24 samples.

Results

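This account covers 10 genes for innate pattern recognition receptors of the mouse, chosen by symbol from the 18368 genes of the expression table: Tlr2, Tlr4, Cd14, Nlrp3, Clec4d, Clec4e, Clec7a, Trem1, Fpr1 and Fpr2. All 10 symbols were found once, and each gene was followed in all 24 libraries. RNA was sequenced from whole skin of abdomen, back and cheek of 12 CD-1 mice, an outbred albino stock, with 4 mice per site and no mouse used for more than a single site. Each mouse gave a punch biopsy of 2 mm from a wound made 3 days before, and another of unwounded skin beside it, so every site had 4 wound and 4 unwounded libraries in pairs. All mice were 7 weeks old and in telogen, the resting phase of the hair cycle, and the labels name no genotype beyond the stock and no agent beyond the anaesthetic and analgesic given for wounding. Abdomen and back mice had 2 wounds and cheek mice had 1, so the number of wounds and the cheek site cannot be told apart. Values are FPKM, fragment counts scaled to transcript length and to the total mapped in the library, and the text calls each library by its site, state and mouse number.

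Pattern recognition receptors detect molecules of microbes and of damaged tissue. TLR2 and TLR4 are Toll-like receptors that signal at the plasma membrane through MyD88, and CD14 hands lipopolysaccharide and lipopeptides to them. Clec4d (MCL), Clec4e (Mincle) and Clec7a (dectin-1) are C-type lectins that bind microbial glycolipids or beta-glucan and signal through ITAM motifs, TREM1 amplifies such signals through the adaptor DAP12, the formyl peptide receptors FPR1 and FPR2 guide phagocytes towards formylated peptides, and NLRP3 nucleates an inflammasome that leads to release of mature interleukin-1 beta. In skin these receptors are carried chiefly by neutrophils, monocytes and macrophages, and TLR2 also by keratinocytes.

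In RefSeq (GRCm38.p6), Clec4d (chr6:123262107-123275268) and Clec4e (chr6:123281789-123289871) were neighbours 6.5 kb apart with 0 other genes between them, and Fpr1 (chr17:17876471-17883939) and Fpr2 (chr17:17887824-17893952) were neighbours 3.9 kb apart, again with 0 genes between. Trem1 lay at chr17:48232713-48246927, Clec7a at chr6:129461591-129472785, Nlrp3 at chr11:59541569-59566955, Tlr2 at chr3:83836272-83841824 and Tlr4 at chr4:66827551-66846581. Promoter sequence was matched by symbol for 8 of the 10 genes, without Tlr4 and Cd14. The sequences below are the 250 bases before the start sites of Clec4d, Clec4e, Trem1 and Nlrp3, shown as examples of receptors that were under 1 FPKM in every unwounded library and called higher in wounds at all 3 sites, and because the lectin pair lies side by side. Nlrp3 has an entry for each of 2 starts. The start used for Trem1 lies inside the RefSeq span given above, so the end of its window overlaps that span. They run 5′ to 3′ on the strand of the gene, and capitals mark matches, on either strand, to the letters searched: GGNNTTTCC (NF-kappaB type), AGGAAG (PU.1 type), TTGCNNAA (C/EBP type) and TGANTCA (AP-1 type).
Clec4d, chr6:123261857-123262106, plus strand: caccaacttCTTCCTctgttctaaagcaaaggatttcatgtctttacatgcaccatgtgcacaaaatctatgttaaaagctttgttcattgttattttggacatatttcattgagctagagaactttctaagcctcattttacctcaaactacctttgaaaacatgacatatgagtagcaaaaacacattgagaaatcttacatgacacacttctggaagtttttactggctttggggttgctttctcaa
Clec4e, chr6:123289872-123290121, minus strand: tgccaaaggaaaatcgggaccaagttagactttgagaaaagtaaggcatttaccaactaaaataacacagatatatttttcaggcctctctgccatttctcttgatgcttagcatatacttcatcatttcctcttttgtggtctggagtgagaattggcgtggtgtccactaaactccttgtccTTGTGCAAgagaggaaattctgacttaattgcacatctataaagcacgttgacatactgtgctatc
Trem1, chr17:48232489-48232738, plus strand: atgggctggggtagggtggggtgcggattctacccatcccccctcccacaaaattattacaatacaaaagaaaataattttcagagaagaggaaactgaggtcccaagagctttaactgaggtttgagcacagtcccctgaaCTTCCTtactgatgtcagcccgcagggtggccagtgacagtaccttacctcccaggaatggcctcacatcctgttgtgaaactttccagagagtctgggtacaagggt
Nlrp3, upstream start, chr11:59541319-59541568, plus strand: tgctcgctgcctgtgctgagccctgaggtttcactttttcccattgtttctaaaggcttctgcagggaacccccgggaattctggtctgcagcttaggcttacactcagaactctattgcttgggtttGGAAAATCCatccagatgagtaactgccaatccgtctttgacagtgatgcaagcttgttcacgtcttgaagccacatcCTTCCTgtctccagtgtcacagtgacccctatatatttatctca
Nlrp3, downstream start, chr11:59542436-59542685, plus strand: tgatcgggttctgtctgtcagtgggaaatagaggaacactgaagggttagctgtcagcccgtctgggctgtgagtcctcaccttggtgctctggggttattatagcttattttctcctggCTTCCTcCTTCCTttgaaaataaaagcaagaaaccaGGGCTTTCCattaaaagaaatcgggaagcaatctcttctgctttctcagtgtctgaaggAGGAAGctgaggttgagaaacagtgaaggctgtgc

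Both Nlrp3 windows held a match to the NF-kappaB letters, at bases -122 to -114 and -94 to -86 from their starts, and no other receptor window did. Among all 32851 promoter windows of the table, 4.93% held such a match. The PU.1 letters occurred in 5 of the 10 receptor windows, from 4 of the 8 genes (Tlr2, Clec4d, Nlrp3 and Trem1), and in 29.5% of all windows. The C/EBP letters occurred in 1 of the 10, that of Clec4e (bases -66 to -59), and in 9.56% of all windows. The AP-1 letters, present in 6.75% of all windows, occurred in 0 of the 10 receptor windows. Fpr1 met the same rule of levels and calls as the genes shown above, but its window is not shown and held none of these matches. Matches of different motifs could share bases, and none did in these windows. A match describes letters and does not show that a factor bound there.

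In unwounded skin the receptors fell into a detected and a barely detected set. Cd14 had the highest level at every site, with mean FPKM of 15.4 ± 2.89 (abdomen), 16.3 ± 1.33 (back) and 12.6 ± 3.19 (cheek; SD, n = 4), and all its libraries lay above those of Tlr2, the next gene. Tlr2, Tlr4, Clec7a and Fpr2 followed in that order at each site, with means between 6.75 FPKM (Tlr2 in abdomen) and 1.06 FPKM (Fpr2 in abdomen). Tlr2 exceeded Tlr4 within each of the 12 unwounded libraries. Across mice the ranges of these neighbours were separate in abdomen and back and overlapped narrowly in cheek, where the lowest Tlr2 value was 4.19 FPKM and the highest Tlr4 value 4.21 FPKM, and the ranges of Tlr4 and Clec7a overlapped at all 3 sites. Nlrp3, Clec4d, Fpr1, Clec4e and Trem1 had means from 0.403 FPKM (Nlrp3 in back) down to 0.0175 FPKM (Trem1 in back and in cheek), and their ranges overlapped with those of their neighbours in this order. FPKM is scaled to transcript length, so levels of different genes can be compared roughly. How reads were divided among similar genes, such as those for formyl peptide receptors, is uncertain.

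At day 3 all 12 wound libraries lay above all 12 unwounded libraries for 9 of the 10 receptors, Tlr4 being the exception, whereas 5.57% of the 14423 tested genes did so. Receptors called higher in wounds (limma, Benjamini-Hochberg adjusted p under 0.001) numbered 8, 9 and 9 at abdomen, back and cheek, and 0 were called lower. Over all tested genes, 3.92%, 10% and 6.5% were called higher at these sites, and 3.31% at all 3. The median wound effect of the 10 receptors was 3.17, 3.63 and 3.67 on the log2(FPKM + 0.5) scale, beside -0.01, 0.07 and 0.01 for all tested genes. All 4 wounds of a site lay above all its 4 unwounded libraries for 9 receptors in abdomen, 9 in back and 10 in cheek, against 13.4%, 25% and 16.7% of tested genes. Nlrp3, Clec4d, Clec4e, Trem1 and Fpr1 passed the filter of 0.5 FPKM in 4 libraries through their wound libraries, reaching that level in at most 1 of 12 unwounded libraries, so their difference follows in part from the filter. Among the other 5 receptors, 3 were called higher in abdomen, 4 in back and 4 in cheek, with median effects of 1.90, 2.76 and 2.59. In whole skin, more cells of a type and more RNA per cell cannot be told apart.

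**Figure D1:**
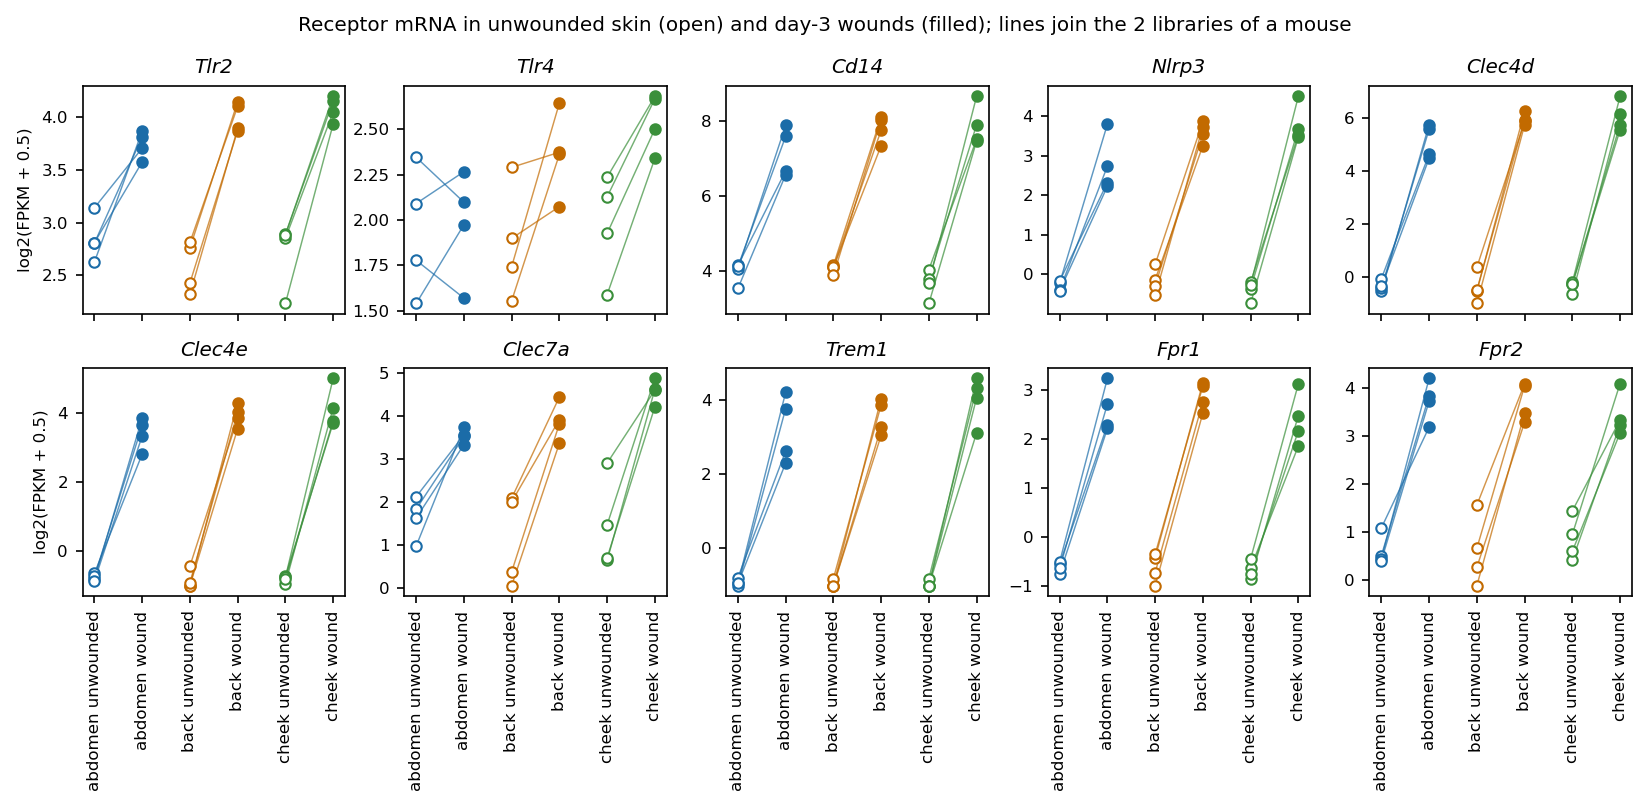
Level of each receptor on the log2(FPKM + 0.5) scale (vertical axis, a separate range per panel) in the 6 groups of 4 libraries (horizontal axis), with open points for unwounded skin, filled points for wounds and a line joining both libraries of a mouse. Every line rises except for 2 of the abdomen mice in the Tlr4 panel.

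Of the Toll-like receptors, Tlr2 rose modestly and Tlr4 was not called. Tlr2, which recognises bacterial lipopeptides together with TLR1 or TLR6, stood at 6.49, 8.32, 6.51 and 5.67 FPKM in unwounded abdomen and at 13.58, 12.57, 11.43 and 14.12 FPKM in abdomen wounds of mice 1 to 4. Back skin had 6.27, 4.49, 6.52 and 4.87 FPKM and back wounds 17.24, 14.38, 16.72 and 14.16 FPKM. Cheek skin had 6.71, 6.90, 6.88 and 4.19 FPKM and cheek wounds 16.08, 17.32, 17.89 and 14.81 FPKM. No wound library overlapped with any unwounded library, and the lowest unwounded value was that of cheek mouse 4. For abdomen, back and cheek the wound effect was 0.90, 1.43 and 1.37 on the log2 scale (SE 0.11; limma adjusted p 0.000117, 1.53e-06 and 2.62e-06), which is 1.92, 2.82 and 2.68 times the unwounded mean. Without abdomen mouse 1 the adjusted p in abdomen was 0.00113, past the threshold of 0.001.

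Tlr4, the receptor for lipopolysaccharide, had 2.41, 4.58, 2.93 and 3.76 FPKM in unwounded abdomen and 3.43, 3.78, 2.47 and 4.31 FPKM in the wounds of the same mice, so 2 mice were higher and 2 lower in the wound. In back the values were 2.85, 2.44, 4.39 and 3.23 FPKM in skin and 5.75, 4.64, 4.68 and 3.71 FPKM in wounds. In cheek they were 4.21, 3.87, 3.30 and 2.51 FPKM in skin and 5.91, 5.85, 5.16 and 4.56 FPKM in wounds. All 4 mice had the higher value in the wound at back and at cheek, and in cheek the groups did not overlap. The wound effect of Tlr4 was 0.04 in abdomen (95% confidence interval -0.29 to 0.36), 0.49 in back (0.17 to 0.82) and 0.58 in cheek (0.25 to 0.90), with limma adjusted p of 0.865, 0.0179 and 0.0100, none under 0.001. The ratio of Tlr2 to Tlr4 went from 2.06 ± 0.513, 1.76 ± 0.336 and 1.78 ± 0.216 in unwounded skin of abdomen, back and cheek to 3.80 ± 0.635, 3.37 ± 0.388 and 3.10 ± 0.326 in wounds (SD, n = 4).

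Cd14, the co-receptor on chromosome 18, was the most abundant of the 10 receptors in every wound group. Abdomen wounds had 236.37, 101.41, 192.81 and 94.62 FPKM, against 16.16, 17.36, 17.01 and 11.16 FPKM in their unwounded skin. Back wounds had 275.63, 162.07, 215.86 and 262.26 FPKM, against 17.33, 16.68, 16.70 and 14.32 FPKM. Cheek wounds had 182.78, 238.77, 403.88 and 176.89 FPKM, against 16.00, 13.43, 12.47 and 8.33 FPKM. The unwounded values were narrow and the wound values broad, with the highest in cheek mouse 3. The means rose 10.1-fold in abdomen, 14.1-fold in back and 20.0-fold in cheek, and the wound effect was 3.21, 3.75 and 4.22 (SE 0.24; limma adjusted p 5.97e-06, 8.51e-07 and 4.53e-07). Summed over the 10 receptors, FPKM ran from 17.8 to 37.0 in unwounded libraries and from 182 to 670 in wounds, and Cd14 made up 43.3% to 65.8% and 52.1% to 64.3% of those sums.

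The neighbouring lectin genes Clec4d and Clec4e were near 0 in unwounded skin and rose at all 3 sites. Clec4d, which pairs with Mincle on myeloid cells, was between 0 and 0.79 FPKM in the 12 unwounded libraries, with back mouse 2 at 0. Abdomen wounds had 53.48, 24.28, 47.31 and 21.84 FPKM, back wounds 76.04, 53.01, 58.01 and 60.58 FPKM, and cheek wounds 46.41, 70.33, 112.36 and 53.18 FPKM. Cheek mouse 3 again had the highest value and abdomen mouse 4 the lowest. The effect of wounding on Clec4d was 5.45 (abdomen), 6.37 (back) and 6.41 (cheek) (SE 0.30; limma adjusted p 8.87e-07, 1.43e-07 and 1.36e-07). Clec4e, the receptor for mycobacterial cord factor and for a protein released by dead cells, was between 0 and 0.24 FPKM in unwounded skin, with 2 back libraries at 0. Its wound values were 13.91, 6.50, 11.94 and 9.61 FPKM in abdomen, 19.18, 11.18, 13.85 and 15.72 FPKM in back and 12.56, 17.21, 31.40 and 13.14 FPKM in cheek. Clec4e thus had the same highest library as Clec4d at each site, and its effects were 4.17, 4.76 and 4.97 (SE 0.23; limma adjusted p 3.35e-07, 9.36e-08 and 6.24e-08). The ratio of Clec4d to Clec4e across wounds of abdomen, back and cheek was 3.45 ± 0.793, 4.19 ± 0.395 and 3.85 ± 0.253 (SD, n = 4).

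Clec7a, the beta-glucan receptor, was already detected in unwounded skin, over a broad range. Unwounded values were 1.47, 3.86, 3.07 and 2.59 FPKM in abdomen, 3.76, 0.54, 3.51 and 0.80 FPKM in back and 6.99, 1.06, 2.27 and 1.13 FPKM in cheek. Wounds had 12.83, 11.29, 11.02 and 9.60 FPKM in abdomen, 21.25, 9.83, 14.63 and 13.64 FPKM in back and 23.81, 24.17, 28.83 and 18.08 FPKM in cheek. No wound library fell within the unwounded range. The mean was highest in cheek wounds, although back mouse 1 (21.25 FPKM) exceeded cheek mouse 4 (18.08 FPKM). The effect was 2.76 in back and 3.15 in cheek (SE 0.36; limma adjusted p 0.000140 and 8.05e-05), and 1.90 in abdomen with adjusted p 0.00287, above the threshold although all 4 mice had more Clec7a in the wound. The abdomen call was gained without cheek mouse 1 (adjusted p 0.000515), and the back call was lost without back mouse 2 (0.00142) or back mouse 4 (0.00124). The cheek call was lost when cheek was fitted on its own 8 libraries (0.00236).

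Trem1, the activating receptor of neutrophils and monocytes, was at 0 FPKM in 7 of the 12 unwounded libraries and at most 0.08 FPKM in the others. Its wound values were 17.86, 5.63, 13.03 and 4.41 FPKM in abdomen, 15.80, 7.72, 13.99 and 9.02 FPKM in back and 8.10, 19.29, 23.22 and 16.03 FPKM in cheek. Abdomen mice 1 and 3 were well above abdomen mice 2 and 4, a split seen in Cd14 and Clec4d as well. The effect was 4.14, 4.50 and 4.96 (SE 0.31; limma adjusted p 4.74e-06, 1.02e-06 and 6.25e-07). Nlrp3, the inflammasome sensor, had 0.10 to 0.69 FPKM in unwounded skin. Wounds had 13.43, 4.50, 6.17 and 4.19 FPKM in abdomen, 14.11, 9.06, 11.20 and 12.86 FPKM in back and 11.07, 12.30, 22.20 and 10.65 FPKM in cheek. Abdomen mouse 1 stood well above the other 3 abdomen wounds, and the effects were 3.07, 3.78 and 4.19 (SE 0.23; limma adjusted p 3.75e-06, 3.53e-07 and 1.60e-07). For receptors near 0 in unwounded skin the size of the effect depended on the added constant: with 0.1 or 1 FPKM in place of 0.5, Trem1 in abdomen gave 6.12 or 3.26, and Clec4e 5.77 or 3.35.

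Both formyl peptide receptors rose at all 3 sites. Fpr1, with high affinity for bacterial formyl peptides, was between 0 and 0.28 FPKM in unwounded skin. Its wound values were 4.13, 4.36, 8.90 and 6.04 FPKM in abdomen, 8.35, 6.27, 7.94 and 5.26 FPKM in back and 5.05, 3.11, 8.19 and 3.98 FPKM in cheek. The effect was 3.23, 3.51 and 3.08 (SE 0.18; limma adjusted p 2.67e-07, 9.42e-08 and 1.84e-07). Fpr2, which also binds serum amyloid A and annexin A1, had unwounded values of 0.92, 1.62, 0.86 and 0.82 FPKM in abdomen, 1.08, 0.70, 2.45 and 0.42 FPKM in back and 2.21, 0.83, 1.43 and 1.01 FPKM in cheek. Its wounds had 13.87, 8.61, 17.92 and 12.78 FPKM in abdomen, 16.06, 9.28, 16.54 and 10.65 FPKM in back and 9.59, 8.92, 16.61 and 7.88 FPKM in cheek. Mouse 3 had the highest Fpr2 value among the wounds of each site, and replicate numbers carry no meaning across sites. The Fpr2 effect was 3.13, 3.14 and 2.59 (SE 0.26; limma adjusted p 8.66e-06, 3.00e-06 and 1.72e-05). Fpr2 exceeded Fpr1 in all 12 wounds, by 2.37 ± 0.664 times in abdomen, 1.88 ± 0.273 times in back and 2.19 ± 0.453 times in cheek (SD, n = 4). Mouse formyl peptide receptor genes are similar in sequence, so how reads were divided among them is uncertain.

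**Figure D2:**
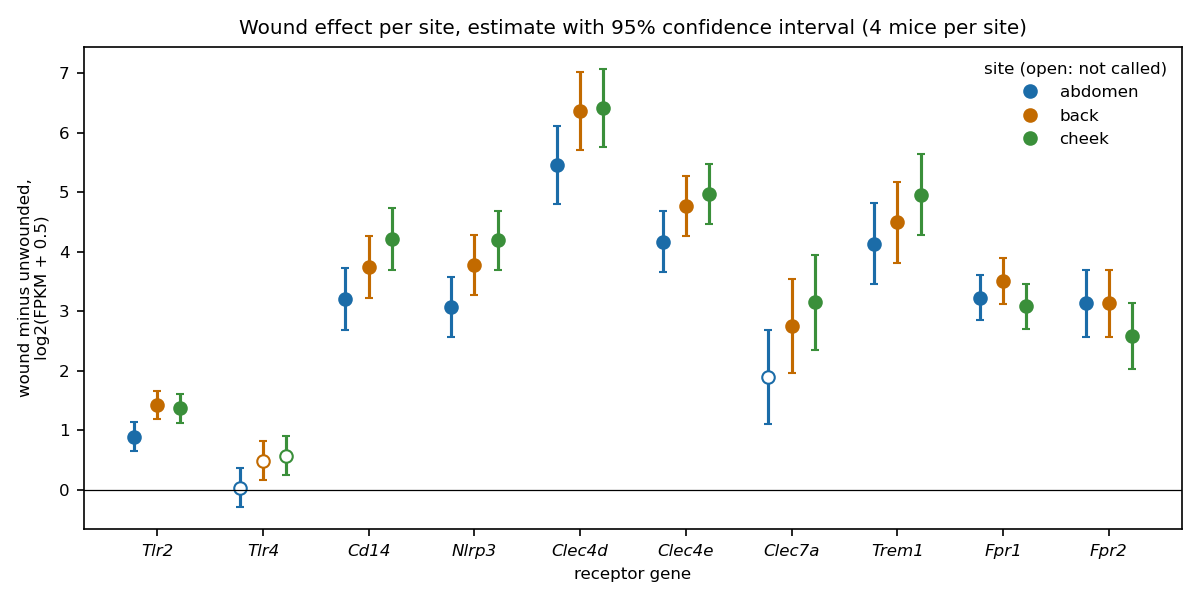
Wound effect of each receptor (vertical axis, wound minus unwounded on the log2(FPKM + 0.5) scale) at abdomen, back and cheek, with 95% confidence intervals from the fit over 24 libraries. Open points were not called, and they are the 3 Tlr4 values and Clec7a in abdomen.

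Whether the response differed between sites was tested directly by a moderated F test of the 3 wound effects. It called 0 of the 10 receptors (limma adjusted p between 0.251 and 0.591), and 0.0208% of all tested genes. Without adjustment 3 receptors had p under 0.05, namely Tlr2 (0.00909), Nlrp3 (0.0147) and Cd14 (0.0366), as did 1867 of 14423 genes. The estimates were larger in cheek than in abdomen for 8 receptors, by 0.48 for Tlr2 (95% confidence interval 0.14 to 0.82), 1.01 for Cd14 (0.27 to 1.75), 1.12 for Nlrp3 (0.41 to 1.83) and 1.25 for Clec7a (0.13 to 2.37), and smaller for Fpr1 (-0.15, interval -0.68 to 0.39) and Fpr2 (-0.55, interval -1.34 to 0.25). Nlrp3 was called (adjusted p 0.0436) when abdomen mouse 1 was left out.

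In unwounded skin the 5 receptors that passed the filter were compared between sites, and 0 were called in any pair, whereas 4.92% of 13956 tested genes were. None of the 5 had an unadjusted p under 0.05 in the limma fit, against 5826 of all genes. For Tlr2 the 95% confidence intervals of the 3 differences lay between -0.64 and 0.51, for Tlr4 between -0.52 and 0.55, and for Cd14 between -0.79 and 0.48. They were wider for Clec7a (-1.81 to 1.60) and Fpr2 (-0.73 to 0.97), so with 4 mice per site differences within those ranges were not excluded. Over all tested genes the median difference was -0.12 when back was set against abdomen and 0.14 when cheek was set against back, a shift that these receptor values include.

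Among wounds, 3 receptors differed between cheek and abdomen, Clec7a by 1.04 (SE 0.20; limma adjusted p 0.0130), Tlr4 by 0.57 (SE 0.16; 0.0403) and Tlr2 by 0.34 (SE 0.09; 0.0381). Of all 14023 genes tested in wounds, 12.2% differed in at least 1 pair of sites. Between cheek and abdomen, 1054 genes were called higher in cheek and 465 lower. Without adjustment, 6 of the 10 receptors had limma p under 0.05 in at least 1 pair, as did 6627 of all genes. Each of the 3 called receptors was higher in every cheek wound than in every abdomen wound (two-sided exact permutation p of 0.0286, the lowest that 4 against 4 allows). Tlr2 was likewise higher in every back wound than in every abdomen wound, where it was not called (limma adjusted p 0.184). The same libraries gave the calls, so this separation adds no separate support. The share of all genes separated in this way was not counted. Mean Clec7a stood at 23.7 ± 4.40 FPKM in cheek, 14.8 ± 4.75 in back and 11.2 ± 1.32 in abdomen (SD, n = 4). The Tlr2 and Tlr4 calls lay close to the threshold: Tlr2 was lost without abdomen mouse 2 (adjusted p 0.0606), abdomen mouse 3 (0.10), back mouse 2 (0.0502) or cheek mice 1 (0.0672), 2 (0.0936) or 3 (0.0938), and under median-ratio scaling (0.0761). Tlr4 was lost without any 1 of 8 of the 12 mice (0.0515 to 0.0990), and both were lost under quantile normalization (0.0570 and 0.0518). The Clec7a call held when any 1 mouse was left out (adjusted p at most 0.0392), and all 3 calls were lost when unwounded libraries shared the fit (Clec7a 0.158, Tlr2 0.137 and Tlr4 0.0745), where Nlrp3 was called instead (0.0340).

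The other 7 receptors were not called between wounds. Nlrp3 was 1.03 higher in cheek than in abdomen (95% confidence interval 0.29 to 1.76; limma adjusted p 0.0672), Clec4d 0.95 (0.23 to 1.67; 0.0789) and Clec4e 0.75 (0.09 to 1.40; 0.115). Fpr1 was -0.21 (-0.83 to 0.41) and Fpr2 -0.31 (-0.90 to 0.29) in the same comparison. Without abdomen mouse 1, Nlrp3 (1.37, adjusted p 0.0113) and Clec4d (1.17, adjusted p 0.0444) were called higher in cheek. Between cheek and back wounds 0 receptors were called, the nearest being Clec7a (0.69, interval 0.26 to 1.12, adjusted p 0.0722, and 0.88 with 0.0328 without back mouse 1), and between back and abdomen wounds 0 were called (Nlrp3 0.83, adjusted p 0.242, and 1.17 with 0.0438 without abdomen mouse 1).

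**Figure D3:**
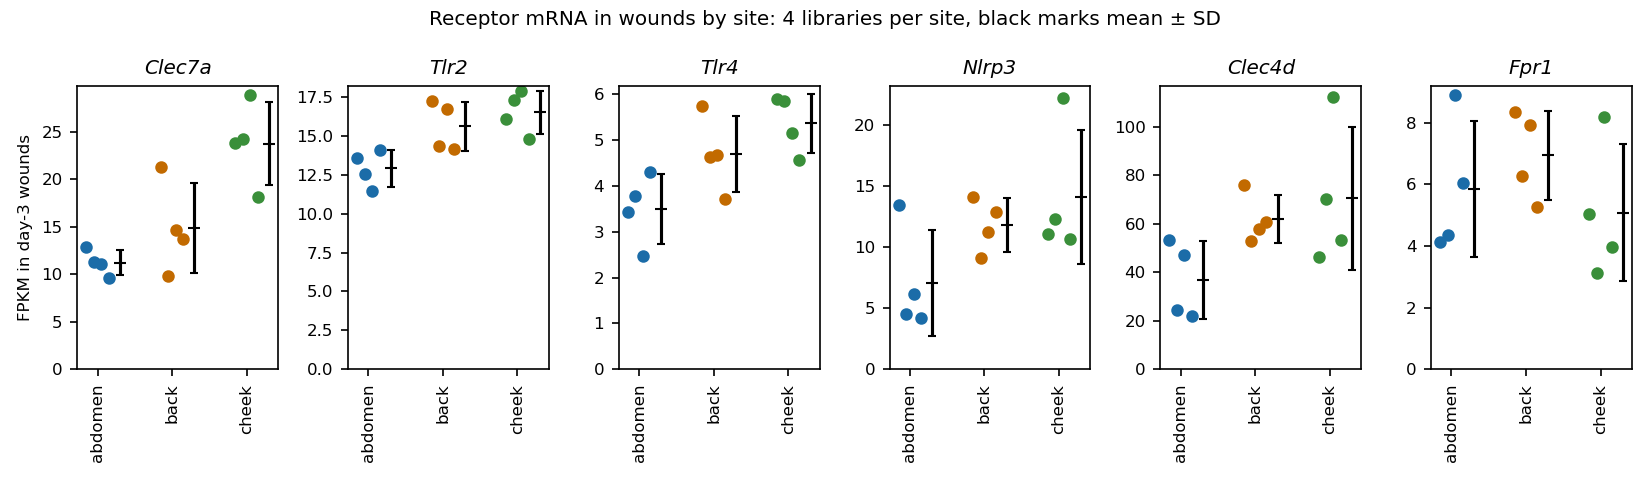
FPKM of 6 receptors in the wound libraries of each site (4 points per site, vertical axes from 0), with mean ± SD in black. Clec7a, Tlr2 and Tlr4 have every cheek wound above every abdomen wound, while the sites overlap for Nlrp3, Clec4d and Fpr1.

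Some markers of leukocytes moved with wounding too. The 10 neutrophil markers summed to 13.4 to 42.8 FPKM in unwounded skin and 42.9 to 101 FPKM in wounds, with 3 of 8 tested markers (Cxcr2, Csf3r and Mmp8) called higher at all 3 sites, and Retnlg called at back and cheek. Ly6g was at 0 in all unwounded abdomen and back libraries and was not called at any site, nor was Ngp. Mpo, the myeloperoxidase gene, had -0.96, -0.74 and -1.70 at abdomen, back and cheek, with the lower value in the wound of every mouse, and Camp had -0.36, -0.50 and 0.28, and neither was called. The 10 monocyte and macrophage markers summed to 694 to 1515 FPKM and 1545 to 2917 FPKM, with 3 of 10 (Adgre1, Cd68 and Fcgr1) called higher at all sites. Ptprc, carried by all leukocytes, was at 6.13 to 16.1 FPKM in skin and 15.1 to 29.2 FPKM in wounds. It was called higher at back (1.42) and cheek (1.44) but not in abdomen (0.86), where the wound and unwounded ranges overlapped. Between the wounds, the neutrophil sum ranged from 42.9 to 63.0 FPKM in abdomen and from 54.1 to 101 FPKM in cheek, and the monocyte and macrophage sum from 1545 to 2917 and from 1679 to 2757 FPKM. The 5 mast cell markers had 0 called members. The 5 keratinocyte markers summed to 5395 to 10167 FPKM in unwounded skin and 10095 to 18236 FPKM in wounds, and 2 of them (Krt14 and Krt1) were called higher at all 3 sites. The 5 fibroblast markers summed to 8766 to 22471 FPKM in unwounded skin and 5590 to 12033 FPKM in wounds, with Col1a2 called lower at back. The 5 skeletal muscle markers summed to 434 to 19570 FPKM in unwounded skin and 1528 to 5796 FPKM in wounds, with 0 called. The part of these cell types in the receptor differences was not tested.

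The receptors did not vary among wounds as a single block. With each value taken as the deviation from its site's mean over the 12 wound libraries, Cd14 and Clec4d had a Pearson's r of 0.97, Cd14 and Nlrp3 0.92, Cd14 and Clec4e 0.91, and Clec4d and Trem1 0.90. Fpr1 and Fpr2 had 0.81 with each other. Fpr1 had only 0.35 with Cd14 and 0.17 with Nlrp3, whereas Fpr2 had 0.72 with Cd14, 0.58 with Nlrp3 and 0.81 with Clec4e. Tlr2 and Tlr4 had 0.76, while Tlr4 had -0.34 with both Cd14 and Clec4d. These are descriptions over 12 libraries that share depth and scaling and, within a site, a handful of mice. Cheek mouse 3 had the highest wound value of its site for 9 of the 10 receptors and back mouse 1 for 9, while back mouse 2 had the lowest for 7. The spread within sites was smallest for Tlr2 (SD 0.13 on the log2 scale) and largest for Trem1 (0.70).

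**Figure D4:**
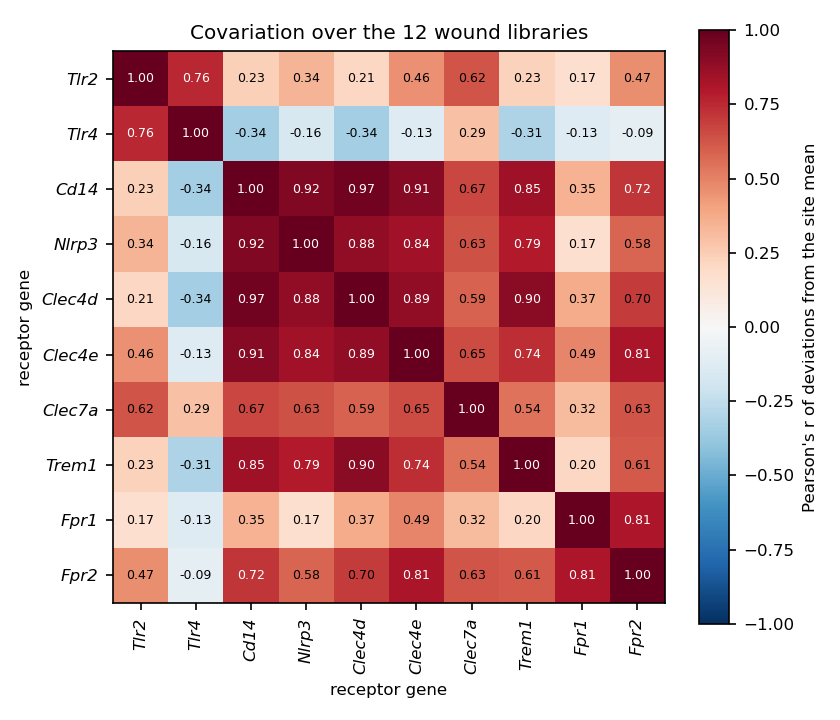
Pearson's r between receptors (both axes) of deviations from the site mean of log2(FPKM + 0.5) over the 12 wound libraries, from blue (-1) to red (1). Cd14, Nlrp3, Clec4d, Clec4e and Trem1 form a block of high values, with Tlr4 near or under 0 against them.

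By the same measure, the genes whose wound levels were most like each receptor were listed as the 3 with the highest r. Il1b, the interleukin-1 beta gene, came first for both Clec4d (r = 0.98) and Cd14 (0.98), and each of that pair was among the 3 likest genes of the other (0.97). Nlrp3 had Pwp2 (0.98), Hdc (0.97) and Slc2a3 (0.96), Clec4e had Srgn (0.93), Nr4a1 (0.93) and Il1rn (0.92), and Trem1 had Hist1h2ap, Junb (both 0.95) and Ier2 (0.93). Tlr2 was most like Pgap2 (0.96), Clec7a like Rbm5 (0.87), Fpr1 like Tcea2 (0.90) and Fpr2 like Siglece (0.92). Each is the highest among all tested genes and carries no test.

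The other genes of the receptors' pathways were followed in lists. Of 9 tested further Toll-like receptors, 6 were called higher in wounds at all 3 sites. Tlr1 and Tlr6, the partners of TLR2, rose by 2.06, 2.32 and 2.40 and by 1.02, 1.09 and 1.46 on the log2 scale in abdomen, back and cheek, and Tlr13, a sensor of bacterial ribosomal RNA, by 2.29, 2.66 and 2.88. Tlr3, Tlr5 and Tlr11 were not called, with Tlr5 at -0.35, -0.04 and -0.20. Among 7 co-receptors and chaperones, Unc93b1 was called at all sites, Ly96 (MD-2, the TLR4 partner) at abdomen and back (0.93 and 0.83, with 0.57 in cheek, adjusted p 0.00275), and 5 at 1 or more sites. Of all tested genes, 10.9% were called higher at 1 or more sites and 3.31% at all 3. Lbp had 0.81, 0.76 and 0.67 and was not called, nor was Cd36 (-0.63, -0.61 and -0.53).

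Of 12 adaptors and kinases, 2 were called higher at all sites, Myd88 (0.86, 1.06 and 0.84) and Irak2, and 8 were called at none. Of 10 inhibitors, 4 were called at all sites, led by Clec12a (2.60, 2.38 and 2.15) and Cd300a (1.77, 1.83 and 2.23), both inhibitory receptors of myeloid cells, whereas Irak3, which restrains Toll-like receptor signalling, had -0.03, 0.16 and 0.24 and was not called. Among 14 inflammasome components, Il1b rose by 5.51, 7.11 and 6.39, from means of 1.82, 1.00 and 2.70 FPKM to 116, 195 and 261 FPKM, and Mefv by 1.21, 2.05 and 1.91. Pycard (0.17, 0.08 and 0.33) and Casp1 (0.02, 0.51 and 0.15), the adaptor and the protease of the NLRP3 inflammasome, were not called at any site, unlike Nlrp3.

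Of 13 tested further C-type lectins, Clec4a1, Clec4a2 and Clec4a3 were called at all sites, and Clec4n (dectin-2) at back (2.35) and cheek (2.56), with 1.75 in abdomen (limma adjusted p 0.00288). Mgl2 (-1.08, -0.64 and -0.59) and Cd209a (-0.92, -0.33 and -0.50), lectins of dermal dendritic cells and macrophages, had the lowest estimates and were not called. The ITAM list had 5 of 10 genes called at all sites, among them Fcer1g, the adaptor of Mincle and MCL (1.76, 1.77 and 1.62), Tyrobp, which encodes DAP12 (1.27, 1.70 and 1.64), and the kinase genes Syk (0.79, 1.36 and 1.43) and Lyn. Card9, downstream of SYK, had 0.01, 0.79 and 0.64 and was not called. Of 4 tested further TREM genes, Trem2, a lipid receptor of macrophages, rose by 2.97, 3.31 and 3.12, and Trem3 and Treml4 were called at all sites too, with Treml2 called at back.

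Of 11 genes for ligands, 4 were called at all sites. Saa3, a serum amyloid A gene, rose by 8.01, 8.08 and 8.13, S100a8 and S100a9, which form the TLR4 ligand calprotectin, by 5.55, 7.17 and 6.19 and by 6.23, 6.45 and 7.54, and Tnc also rose. Anxa1, an FPR2 ligand gene, had -0.08, 0.28 and 0.21 and was not called, and Pglyrp1, a TREM1 ligand gene, was called at back alone (2.03, against 0.79 and 1.04), and the F test of its 3 effects did not call a difference (limma adjusted p 0.384). Of 13 NF-kappaB target genes, 6 were called at all sites and 10 at 1 or more, with the chemokine genes Cxcl2 (7.65, 8.96 and 8.56) and Ccl4 (6.33, 7.23 and 6.63) highest and Nfkb1 and Relb lowest. None of the genes on these pathway lists was called lower at any site. The 5 further formyl peptide receptor genes sought matched no symbol in the expression table, so they could not be analysed.

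**Figure D5:**
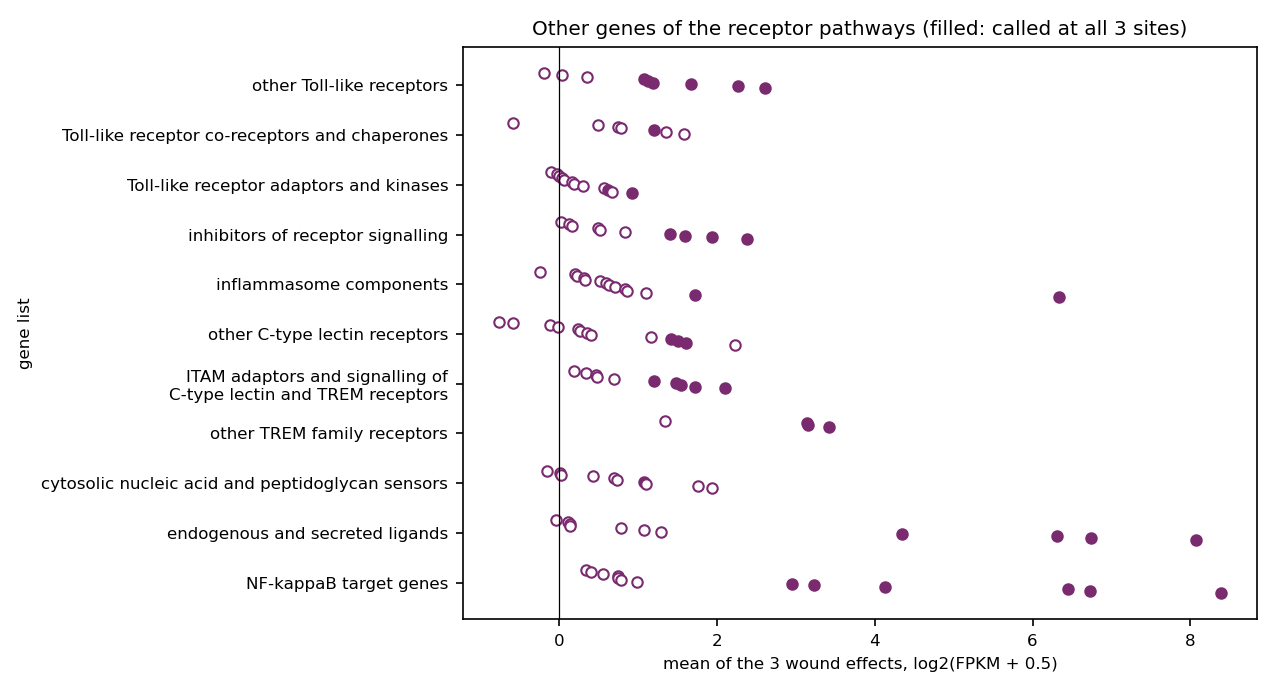
Mean of the 3 wound effects (horizontal axis, log2(FPKM + 0.5) scale) of each tested gene on the pathway lists (vertical axis, 1 point per gene), filled where it was called higher at all 3 sites. Most adaptors and kinases sit near 0, while TREM genes, some ligands and NF-kappaB targets extend beyond 2.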

How the data were processed

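RNA from 24 libraries of 12 mice was sequenced by a provider on a BGISEQ-500 instrument. The authors deposited FPKM values rounded to 2 decimals, from reads filtered, mapped to GRCm38/mm10 with HISAT2 and Bowtie2 (v2.2.5) and quantified with RSEM (v1.2.12), without scaling between libraries. They also deposited log2 fold changes and adjusted p-values of their own comparisons (DESeq2), which were not used. Library sums of FPKM ran from 490830 to 608888. Since FPKM holds no counts, neither the depth nor the counting error is known. Over 55 genes whose non-zero values stayed within 15% of their smallest, libraries differed in the value of a read by up to 1.06 times, a rough estimate limited by that window. No column of per-sample values was left unused.

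The scale was log2(FPKM + 0.5), fitted in R 4.3.3 by limma 3.58.1 (statmod 1.5.0) using a variance trend and robust estimation. A fold change on this scale understates the change of low genes. A gene entered a fit when 4 or more of its libraries reached 0.5 FPKM, and Benjamini-Hochberg adjustment ran over all genes of the fit. Wound effects came from all 24 libraries with a term per mouse, called at 0.001. Site comparisons used either the 12 unwounded or the 12 wound libraries, called at 0.05. Both libraries of a mouse are paired by the labels. Their deviations from group means correlated with a mean r of 0.322, 0.348 and 0.281 in abdomen, back and cheek (lowest -0.030, in abdomen). Between mice the mean was -0.11, -0.12 and -0.10. Deviations cancel out within each group, so these negative values largely follow from the first and are no separate observation. The fits were tested on simulated data.

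Named genes were the receptors, their direct partners, adaptors, products and ligands, the 2 highest and 2 lowest genes of each list, and the 3 genes most like each receptor. Further genes that a count rests on were named after their values were seen, and some genes that the rule picks are not reported here. The receptors and lists were chosen with earlier results of these data known. Alternatives were other pseudocounts, filters, scalings, model terms and sets of libraries, another threshold, and each mouse left out. The labels gave no batch. T cell, B cell, dendritic cell, endothelial and adipocyte markers were also listed: of 5, 1, 6, 4 and 4 tested, 0, 0, 1, 2 and 0 were called higher in wounds at all 3 sites. Of the T cell markers, 1 was called higher at back and cheek and 1 was called lower at back. Of the adipocyte markers, 1 was called lower at back.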

Additional observations from a re-analysis of the deposited data

Results flagged for a closer look

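In 7 of the 60 groups of 4 libraries examined, 1 library lay apart from the other 3 by more of the group's range than Dixon's 95% critical value, where chance marks about 1 group in 20. All 7 were unwounded libraries. Tlr2 in cheek mouse 4 (4.19 FPKM) stood apart by 0.943 of the range and Cd14 in abdomen mouse 4 (11.16 FPKM) by 0.837, both below the others. Clec4d in cheek mouse 2 (0.14 FPKM) was low by 0.847. Clec4e in back mouse 3 (0.24 FPKM) was high by 0.851 and Fpr2 in abdomen mouse 2 (1.62 FPKM) by 0.846. Trem1 in back mouse 3 and in cheek mouse 2 (both 0.07 FPKM) had a share of 1, since the other 3 libraries were at 0. Of these receptors, Tlr2, Cd14 and Fpr2 were above 0.5 FPKM in the libraries named, and the other values were low. The causes were not tested.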

How the results depend on the processing

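Counts of receptors called for wounding were 8, 9 and 9 in abdomen, back and cheek under other pseudocounts, filters and scalings. With each site fitted on its own 8 libraries, which leaves fewer samples to estimate the spread, 2 receptors (Clec4e and Fpr1) were called in abdomen, where 67 of all genes were called in place of 715. In the same fits 9 receptors were called in back and 8 in cheek, without Clec7a. At a threshold of 0.05 the counts were 9, 10 and 10. Leaving out each mouse gave 7 to 9 in abdomen, 8 to 9 in back and 9 in cheek. Without the replicate block (the term for each mouse) the wound counts were 8, 9 and 9 and the count of receptors whose response differed was 0. That count was 0 to 1 with each mouse left out, the 1 being Nlrp3 without abdomen mouse 1. The count that differed between sites in unwounded skin was 0 in every fit run. The 3 receptors that differed between wounds became 1 under quantile normalization (Clec7a), 1 with all 24 libraries in a fit of 6 groups (Nlrp3), and 1 to 4 with a mouse left out. Mouse numbers do not pair mice across sites (mean r of same-numbered mice -0.027 in unwounded skin and -0.051 in wounds), and with the number as a replicate block that count was also 1 (Clec7a). No called receptor value changed sign. For low receptors the pseudocount moved the size of the effect. The 4 mice per site and FPKM without counts limit precision.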

Other observations

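Mpo, a granule enzyme gene on the neutrophil list, averaged 31.6, 9.21 and 13.7 FPKM in unwounded abdomen, back and cheek skin and 16.5, 5.45 and 4.11 FPKM in wounds, opposite in direction to Cxcr2 and Csf3r and without a call (limma adjusted p 0.026, 0.056 and 0.0010). Elane, another primary granule gene, stayed under 0.2 FPKM on average in all 6 groups. The neutrophil sum in unwounded skin was therefore made up largely of Mpo.

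Among cytosolic sensors, the estimates of Zbp1 (2.51, 1.65 and 1.11 in abdomen, back and cheek) and Dhx58 (2.80, 1.79 and 1.23) ran in the opposite order to those of Cd14, Nlrp3 and Trem1, with only Dhx58 in abdomen called (limma adjusted p 0.00048). The moderated F test called neither as different between sites (limma adjusted p 0.483 for Zbp1 and 0.374 for Dhx58, unadjusted 0.132 and 0.0444). Of the 10 sensors tested, Tmem173, which encodes STING, was called higher at all 3 sites (0.90, 1.25 and 1.06).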
